A study of Rattus norvegicus with 18 samples.

Results

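The 10 enzymes Acadl, Acadm, Acads, Acadvl, Hadha, Hadhb, Acaa2, Decr1, Eci1 and Etfdh carry out fatty acid β-oxidation in mitochondria, and their mRNA levels are described here in rat primary hepatocytes, the parenchymal cells of the liver kept in culture. A probe set, the group of short probes that reads 1 transcript on the array, was taken as a member when it was no array control and its annotation gave exactly 1 gene symbol out of these 10. This gave 14 probe sets for the 10 genes, of 31042 probe sets and 14217 genes in all. Each gene is read through its main probe set, which had the highest mean over the 18 arrays, and the other 4 probe sets are given beside it. The hepatocytes came from Wistar rats, were left to attach for 24 h, and were then exposed to 30 µM EMD, to 100 µM EMD or to the solvent, 0.1% DMSO, for 24 or 72 h. EMD is described by the study as an agonist of both PPARα and PPARγ. All cultures, vehicle included, received insulin and hydrocortisone in the medium. There were 6 groups of 3 arrays, named EMD 30 µM, EMD 100 µM and DMSO at 24 h and at 72 h. The study's methods call the replicates biological and state that cells of every animal went through all treatments, but the labels name no animal for an array, so the arrays could not be paired by animal and p-values measure only the spread between these cultures.

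Mitochondrial β-oxidation shortens a fatty acyl-CoA in repeated rounds of dehydrogenation, hydration, a further dehydrogenation and thiolytic cleavage, each round releasing acetyl-CoA. Acyl-CoA dehydrogenases with overlapping preferences for chain length open the round, the trifunctional protein and soluble enzymes complete it, and auxiliary enzymes handle the double bonds of unsaturated fatty acids. In liver the pathway feeds ketone body synthesis during fasting, and many of its genes are known targets of the nuclear receptor PPARα, which binds DNA together with RXR at direct repeats of AGGTCA spaced by a single base.

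The values are log2 expression estimates, in which a difference of 1 is a doubling. The medians of the 18 arrays lay between 5.04 and 5.11, the values ran between 2.39 and 14.77, and no correlation between any pair of arrays was under 0.961. The 10 main probe sets were bright, with means above those of at least 95.1% of all probe sets. All 7 measured hepatocyte markers were above the array median in every group, and their mean level on an array ran between 12.49 and 13.18. All 5 endothelial markers stayed under it, with mean levels between 3.38 and 3.63, and 6 of 7 stellate cell or fibroblast markers did so in every group. Macrophage markers had mean levels between 4.92 and 6.01 and cholangiocyte markers between 4.73 and 5.25. Of these, 3 or 4 of the 6 macrophage and 3 or 4 of the 5 cholangiocyte markers were under the array median in a group. The brightest marker of each list averaged 8.64 and 8.81 over the 18 arrays. In bulk RNA, fewer cells of a type and less RNA per cell cannot be told apart.

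EMD was associated with higher mRNA of all 10 enzymes at both doses and both times, with the largest changes for Eci1, Acaa2, Acadm and Decr1 at 24 h. At 24 h all 10 rose under EMD 30 µM, where 3.35% of all probe sets were called higher, and all 10 rose under EMD 100 µM, where 3.06% were. Probe sets called in either direction at 24 h numbered 1664 for EMD 30 µM and 1867 for EMD 100 µM, and without single arrays ran from 1027 to 1890 and from 1207 to 2152 for these doses, lowest without replicate 2 of the EMD group. At 72 h all 10 rose under EMD 30 µM against 7.88% of all probe sets, and all 10 under EMD 100 µM against 7.42%. The median change of the 10 was 1.70 for EMD 30 µM and 1.57 for EMD 100 µM at 24 h, and 1.69 and 1.33 for these doses at 72 h. Over all probe sets the medians were -0.03, -0.01, 0.01 and 0.02 in the same order. The least certain of these calls had an adjusted p of 0.00641 in limma's moderated test. Every EMD array lay above every DMSO array of its time for each of the 10 genes in all 4 comparisons, which held for 9.01%, 9.23%, 15.7% and 15.2% of all probe sets. Both doses of a time share the same 3 DMSO arrays, so their changes are not independent of each other. At 72 h, 4 of the 7 hepatocyte markers (Apoa1, Cps1, Serpina1 and Ttr) fell at both doses while Alb changed by 0.01 ± 0.06 (SE) at each, where 9.22% (EMD 30 µM) and 9.68% (EMD 100 µM) of all probe sets were called lower. Another hepatocyte marker, Apob, rose by 0.62 under EMD 30 µM at 72 h. At 24 h, 1 of the 7 fell at each dose, Cps1 under EMD 30 µM (-0.48) and Apoa1 under EMD 100 µM (-0.38). The difference between the 3′ and 5′ β-actin control probe sets, a measure of RNA length, was higher with EMD at 72 h without overlap. It was 0.82 to 0.89 in EMD 30 µM and 0.84 to 0.85 in EMD 100 µM against 0.64 to 0.73 in DMSO. The GAPDH controls overlapped at 72 h, at 0.15 to 0.22, 0.12 to 0.17 and 0.14 to 0.18 (EMD 30 µM, EMD 100 µM, DMSO). The hexokinase controls overlapped too, at 1.35 to 1.62, 1.57 to 1.79 and 1.50 to 1.63 in the same order. At 24 h the hexokinase difference was higher in EMD 30 µM (1.55 to 1.68) than in DMSO (1.27 to 1.51) without overlap. In EMD 100 µM it overlapped DMSO (1.39 to 1.59). The GAPDH difference at 24 h was lower in EMD 100 µM (0.17 to 0.25) than in DMSO (0.27 to 0.30) without overlap. In EMD 30 µM it overlapped DMSO (0.25 to 0.30). The β-actin difference overlapped at 24 h, at 1.29 to 1.39, 1.22 to 1.39 and 1.28 to 1.36 (EMD 30 µM, EMD 100 µM, DMSO). The part of the hepatocyte markers and of RNA length in the enzymes' rises was not tested.

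**Figure D1:**
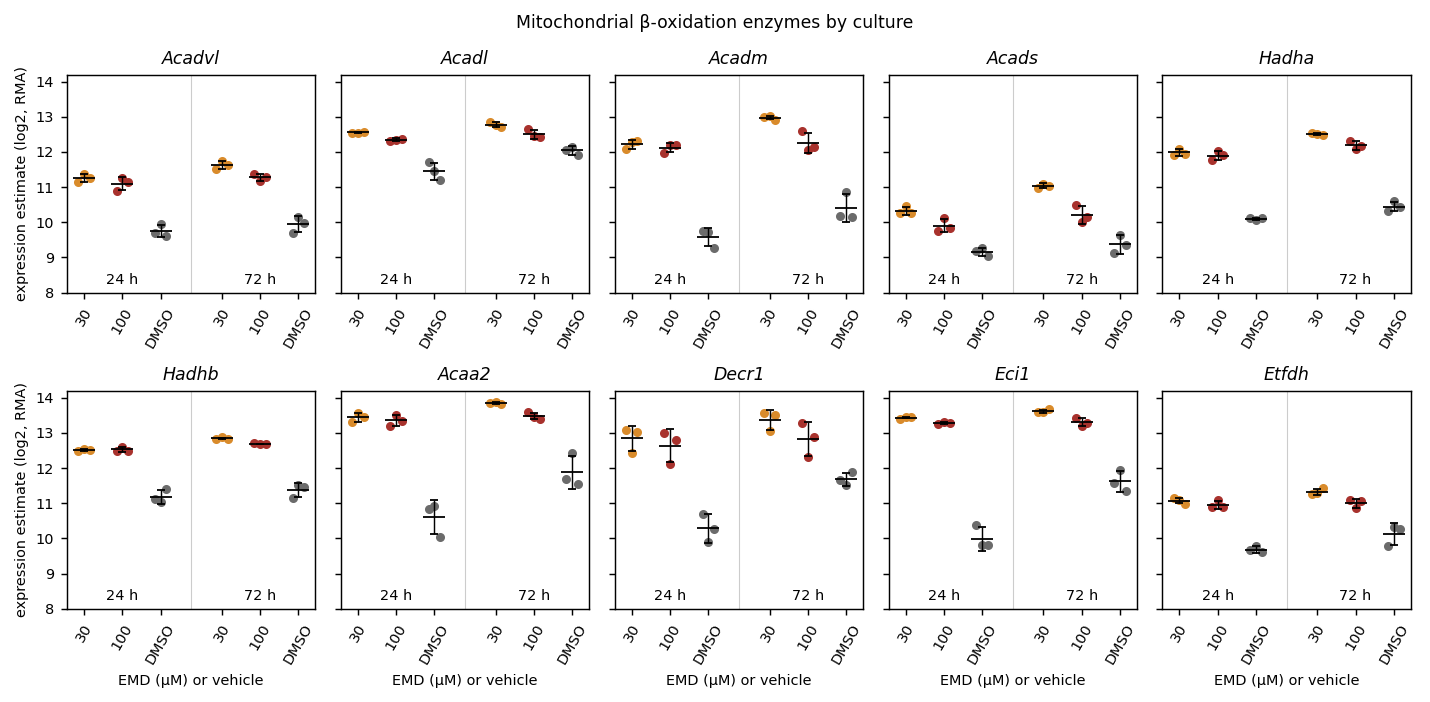
Expression estimates (log2, RMA) of the 10 enzymes in the 18 cultures, by EMD dose in µM or DMSO vehicle and by time. Points are single arrays, and bars are the mean and SD of 3. The EMD points of each panel lie above the DMSO points of the same time.

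**Figure D2:**
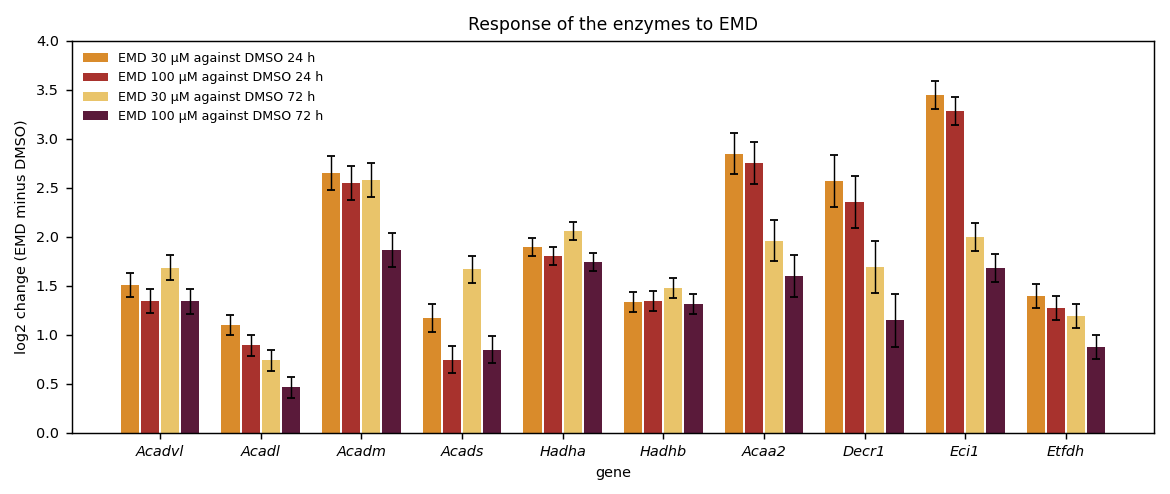
Log2 change, EMD minus DMSO, of the 10 enzymes in the 4 comparisons. Bars are estimates of the limma fit with their SE. Eci1 has the tallest bar at 24 h (3.44 for EMD 30 µM) and Acadl the shortest at 72 h (0.46 for EMD 100 µM).

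The acyl-CoA dehydrogenases catalyse the opening step of each round. Acadm, the medium-chain enzyme, had values of 12.07, 12.29 and 12.30 in EMD 30 µM and 11.97, 12.20 and 12.20 in EMD 100 µM at 24 h, against 9.74, 9.71 and 9.27 in DMSO. At 72 h its values were 12.98, 13.02 and 12.92 in EMD 30 µM and 12.59, 12.05 and 12.15 in EMD 100 µM, against 10.18, 10.85 and 10.16 in DMSO. The DMSO arrays spread more widely (SD 0.39 at 72 h) than those of EMD 30 µM, and no EMD array came within 1 log2 unit of a DMSO array of its time. The changes of Acadm were 2.65 ± 0.18 and 2.55 ± 0.18 (SE) for EMD 30 µM and EMD 100 µM at 24 h, a 6.27-fold and a 5.84-fold higher level, and 2.58 ± 0.18 and 1.87 ± 0.18 at 72 h.

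Acads, the short-chain enzyme, had values of 10.25, 10.46 and 10.27 in EMD 30 µM and 9.75, 10.12 and 9.84 in EMD 100 µM at 24 h, against 9.18, 9.26 and 9.04 in DMSO. At 72 h it had 10.96, 11.10 and 11.04 in EMD 30 µM and 10.50, 10.01 and 10.14 in EMD 100 µM, against 9.12, 9.64 and 9.35 in DMSO. At each time the 3 groups were ordered without overlap, with EMD 30 µM on top and EMD 100 µM between it and DMSO. The changes of Acads were 1.17 ± 0.14 (EMD 30 µM) and 0.75 ± 0.14 (EMD 100 µM) at 24 h and 1.67 ± 0.14 and 0.85 ± 0.14 for these doses at 72 h.

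Acadl, the long-chain enzyme, had the smallest changes of the 4 dehydrogenases in 3 of the 4 comparisons, since Acads was lower still under EMD 100 µM at 24 h. Its arrays ran between 12.31 and 12.85 with EMD and between 11.21 and 12.15 with DMSO, and it rose by 1.10 ± 0.11 and 0.89 ± 0.11 (EMD 30 µM and EMD 100 µM, 24 h) and by 0.74 ± 0.11 and 0.46 ± 0.11 (the same doses, 72 h). Acadvl, the very-long-chain enzyme bound to the inner mitochondrial membrane, ran between 10.90 and 11.73 with EMD and between 9.62 and 10.14 with DMSO. Acadvl rose by 1.51 ± 0.12, 1.34 ± 0.12, 1.68 ± 0.12 and 1.34 ± 0.12 in the same order.

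Whether these dehydrogenases rose unequally was tested on the difference of their log2 values within each array, EMD against DMSO over both doses and times, by a two-sided exact permutation test of labels within each time (12 EMD and 6 DMSO arrays, 7056 relabelings, smallest possible p 0.000142, p adjusted over 7 pairs). The relabelings took no account of the replicate number, and this test was not run with it as a block. Acadm rose more than Acads by 1.30, while the change of Acadvl was below that of Acadm by 0.94 (difference -0.94) and the change of Acadl below that of Acadm by 1.61 (difference -1.61). Acadvl rose more than Acadl by 0.67. Each of these 4 differences had a permutation p of 0.000142 (adjusted p = 0.000198) and was seen in 12 of 12 EMD arrays. Acadvl rose more than Acads by 0.36 (exact permutation adjusted p = 0.0043, 11 of 12 arrays). The change of Acadl less that of Acads was -0.31 and did not pass (exact permutation adjusted p = 0.057, 9 of 12 arrays), and this pair did pass when any 1 of 5 arrays was left out. Each dehydrogenase was read by its main probe set alone, and probe sets of 1 gene could differ as well. Those of Acaa2 rose by 1.60 and 3.27 under EMD 100 µM at 72 h. The p-values measure the spread between arrays, so a difference between probe sets cannot be told apart from a difference between genes.

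Of the 10 genes, RefSeq promoter windows of the GRCr8 build, 250 bases before to 50 after the start, were at hand for 7 and not for Acadl, Acaa2 and Decr1. They were searched on both strands for the PPAR direct repeat AGGTCANAGGTCA and for AGGTCA alone, which is part of that repeat. At up to 1 mismatch the repeat was found in 1 of the 7 windows, that of Acadvl, and in 127 of 27457 rat windows of the same length (0.463%). AGGTCA itself stood in the windows of Acadvl, Hadhb and Eci1 (3 of 7), against 15.7% of all windows. With no mismatch the repeat was in 0 of the 7, against 0.0583% of all windows, and with up to 2 mismatches in 1 (Acadvl), against 3.71%. With up to 3 it was in 3 (Acadvl, Hadha and Hadhb), against 24.4%. The Hadha and Hadhb windows share 200 bases that hold such a match, so these windows are not separate. The ERR element was in 0 of the 7 with no mismatch, against 0.412% of all windows. With up to 1 mismatch it was in 1 (Eci1, against 7.06%), where it overlaps the AGGTCA of that window. The NRF1 element was in 1 with no mismatch (Etfdh), against 4.71%. The Acadvl window, chr10:55236656-55236955 on the minus strand, is shown because it holds the repeat, at position -17 from the start used for the window, and a further AGGTCA at -169. Both are in capitals. The RefSeq gene extends to 55236786, so the repeat, at 55236710 to 55236722, lies inside the annotated gene.
Acadvl: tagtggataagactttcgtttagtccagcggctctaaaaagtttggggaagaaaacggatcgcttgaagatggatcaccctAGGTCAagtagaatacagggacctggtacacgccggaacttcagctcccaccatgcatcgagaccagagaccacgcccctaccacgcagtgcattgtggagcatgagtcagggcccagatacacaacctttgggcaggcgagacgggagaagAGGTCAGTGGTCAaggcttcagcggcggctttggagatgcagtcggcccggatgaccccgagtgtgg
These matches describe letters and are not evidence of binding.

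Hadha and Hadhb encode the α and β subunits of the mitochondrial trifunctional protein, which carry its hydratase with long-chain 3-hydroxyacyl-CoA dehydrogenase and its thiolase. The genes lie head to head on chromosome 6, so that their promoter windows overlap over 200 bases. The Hadha window, chr6:31907551-31907850 on the plus strand, is shown with the part it shares with the Hadhb window in capitals, since both genes are read outward from this stretch.
Hadha: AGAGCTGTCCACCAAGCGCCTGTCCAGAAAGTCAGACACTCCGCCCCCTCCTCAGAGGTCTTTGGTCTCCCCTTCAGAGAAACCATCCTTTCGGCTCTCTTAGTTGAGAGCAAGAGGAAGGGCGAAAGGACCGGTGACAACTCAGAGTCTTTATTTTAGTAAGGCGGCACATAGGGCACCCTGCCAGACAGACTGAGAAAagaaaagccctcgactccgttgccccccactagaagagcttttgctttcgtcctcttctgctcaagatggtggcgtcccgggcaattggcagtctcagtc
Hadha had values of 11.91, 12.09 and 11.95 in EMD 30 µM and 11.76, 12.02 and 11.91 in EMD 100 µM at 24 h, against 10.11, 10.05 and 10.12 in DMSO. At 72 h they were 12.53, 12.52 and 12.47 in EMD 30 µM and 12.31, 12.08 and 12.16 in EMD 100 µM, against 10.31, 10.59 and 10.44 in DMSO. Replicates of Hadha agreed closely, with no SD over 0.142 in any group. Hadhb had values of 12.50, 12.54 and 12.51 in EMD 30 µM and 12.49, 12.60 and 12.50 in EMD 100 µM at 24 h, against 11.11, 11.04 and 11.40 in DMSO. At 72 h Hadhb had 12.84, 12.87 and 12.84 in EMD 30 µM and 12.70, 12.68 and 12.68 in EMD 100 µM, against 11.15, 11.52 and 11.45 in DMSO.

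The subunits followed each other closely over the 18 arrays (r = 0.991, a description in which all points share the EMD and DMSO split). Their changes differed in size. Hadha rose by 1.89 ± 0.09, 1.80 ± 0.09, 2.06 ± 0.09 and 1.74 ± 0.09 (EMD 30 µM 24 h, EMD 100 µM 24 h, EMD 30 µM 72 h, EMD 100 µM 72 h). Hadhb rose by 1.33 ± 0.10, 1.34 ± 0.10, 1.47 ± 0.10 and 1.31 ± 0.10 in these comparisons. Within arrays the change of Hadha exceeded that of Hadhb by 0.51 (exact permutation p = 0.000142, adjusted p = 0.000198, 12 of 12 EMD arrays). This order turned round when the 3 Hadha probe sets were averaged (-0.13, adjusted p = 0.00546). The brighter of the other Hadha probe sets had group means between 4.13 and 6.21 and rose by 1.68 to 1.92. The dimmest had group means between 3.07 and 3.24, above only 4.94% to 8.48% of probe sets, and its changes were -0.05 to 0.12 and passed in none of the 4 comparisons.

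Acaa2 is the mitochondrial 3-ketoacyl-CoA thiolase, which cleaves acetyl-CoA from medium-chain substrates. Its values were 13.32, 13.57 and 13.46 in EMD 30 µM and 13.21, 13.52 and 13.34 in EMD 100 µM at 24 h, against 10.84, 10.93 and 10.05 in DMSO. At 72 h Acaa2 had 13.84, 13.88 and 13.83 in EMD 30 µM and 13.59, 13.45 and 13.41 in EMD 100 µM, against 11.70, 12.42 and 11.54 in DMSO. The EMD arrays were tight and the DMSO arrays loose, with SD of 0.03 in EMD 30 µM at 72 h and 0.49 in DMSO at 24 h. Acaa2 rose by 2.85 ± 0.21 and 2.75 ± 0.21 at 24 h (EMD 30 µM and EMD 100 µM), 7.19-fold and 6.74-fold, and by 1.96 ± 0.21 and 1.60 ± 0.21 at 72 h. Its second probe set, with group means between 8.54 and 9.42 in EMD and of 5.73 and 5.64 in DMSO at 24 h and 72 h, rose in all 4 comparisons too, by 3.33, 3.69, 2.90 and 3.27.

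Decr1, the 2,4-dienoyl-CoA reductase, and Eci1, an enoyl-CoA isomerase, bring the double bonds of unsaturated fatty acids into a form that the cycle can take up. Eci1 had the largest response at 24 h, with values of 13.41, 13.46 and 13.44 in EMD 30 µM and 13.26, 13.31 and 13.27 in EMD 100 µM, against 10.39, 9.80 and 9.80 in DMSO. At 72 h it had 13.59, 13.60 and 13.67 in EMD 30 µM and 13.42, 13.20 and 13.28 in EMD 100 µM, against 11.57, 11.94 and 11.36 in DMSO. The EMD arrays were near the same level at both times, and the DMSO arrays were higher at 72 h than at 24 h without overlap. The changes of Eci1 were 3.44 ± 0.15 (10.9-fold) and 3.28 ± 0.15 (9.73-fold) at 24 h for EMD 30 µM and EMD 100 µM, and 2.0 ± 0.15 (4.00-fold) and 1.68 ± 0.15 (3.21-fold) at 72 h. Its second probe set did not follow. That probe set had group means between 4.15 and 4.73, under the array median, and changes of -0.10, -0.15, 0.13 and 0.17, none of which passed. The window of Eci1, chr10:13961000-13961299 on the plus strand, is shown because Eci1 differed most between times, with the reverse complement of AGGTCA, at -94, in capitals.
Eci1: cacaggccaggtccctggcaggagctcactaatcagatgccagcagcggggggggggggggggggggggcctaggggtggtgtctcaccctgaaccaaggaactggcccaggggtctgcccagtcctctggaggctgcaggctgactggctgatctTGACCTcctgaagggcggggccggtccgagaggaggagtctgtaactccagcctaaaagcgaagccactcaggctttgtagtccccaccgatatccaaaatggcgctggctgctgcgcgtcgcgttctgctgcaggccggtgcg

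Decr1 had values of 13.07, 12.44 and 13.04 in EMD 30 µM and 12.99, 12.11 and 12.81 in EMD 100 µM at 24 h, against 10.69, 9.89 and 10.27 in DMSO. At 72 h its values were 13.56, 13.05 and 13.51 in EMD 30 µM and 13.28, 12.32 and 12.89 in EMD 100 µM, against 11.65, 11.52 and 11.88 in DMSO. The array numbered replicate 2 was the lowest of its group in 6 of 6 groups for Decr1, a pattern that no other member had in all groups. Decr1 rose by 2.57 ± 0.27 and 2.35 ± 0.27 at 24 h (EMD 30 µM and EMD 100 µM) and by 1.69 ± 0.27 and 1.15 ± 0.27 at 72 h, with the widest SE of the 10 enzymes.

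Etfdh, the electron transfer flavoprotein dehydrogenase, passes electrons from the acyl-CoA dehydrogenases to ubiquinone in the respiratory chain. Its arrays lay between 10.86 and 11.42 with EMD and between 9.60 and 10.33 with DMSO. Etfdh rose by 1.39 ± 0.12, 1.28 ± 0.12, 1.19 ± 0.12 and 0.88 ± 0.12 (EMD 30 µM 24 h, EMD 100 µM 24 h, EMD 30 µM 72 h, EMD 100 µM 72 h). Etfa and Etfb, the subunits of the flavoprotein that hands electrons to Etfdh, rose in the same 4 comparisons, Etfa by 0.41, 0.31, 0.64 and 0.50 and Etfb by 0.84, 0.75, 1.08 and 0.69.

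No enzyme was called higher at EMD 100 µM than at EMD 30 µM. At 24 h none of the 10 differed between EMD 100 µM and EMD 30 µM in limma's test (1 of 10, Acads, had an unadjusted p under 0.05), nor did any other probe set, the share called in either direction being 0%. The differences, EMD 100 µM minus EMD 30 µM, ran between -0.42 for Acads (95% interval -0.72 to -0.12) and 0.01 for Hadhb (-0.20 to 0.22). The groups did not overlap for Acadl, Acads and Eci1, lower at EMD 100 µM in each, as for 5.79% of all probe sets. Beside these main probe sets, the second of Acaa2 differed by 0.36 and the brighter other one of Hadha by 0.24. The dimmest of Hadha differed by -0.07 and the second of Eci1 by -0.05, and none of these passed.

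At 72 h the estimates of all 10 main probe sets were lower at EMD 100 µM than at EMD 30 µM, by differences between -0.16 (Hadhb) and -0.82 (Acads). The other probe sets did not share this. The second of Acaa2 differed by 0.37, against -0.36 for its main one, and the brighter other one of Hadha by 0.02. The dimmest of Hadha differed by -0.04 and the second of Eci1 by 0.04, and none of these passed. Acads, at 10.50, 10.01 and 10.14 in EMD 100 µM against 10.96, 11.10 and 11.04 in EMD 30 µM, fell by 0.82 ± 0.14 (adjusted p = 0.00615). Acadm, at 12.59, 12.05 and 12.15 in EMD 100 µM against 12.98, 13.02 and 12.92 in EMD 30 µM, fell by 0.71 ± 0.18 (adjusted p = 0.0375). These were 2 of 10 members, where 1.85% of all probe sets were called lower. An unadjusted p under 0.05 in limma's test was reached by 7 of 10, and the share of all probe sets reaching it was not counted. For 9 of 10, all but Decr1, the EMD 100 µM arrays lay below the EMD 30 µM arrays without overlap, as for 9.45% of all probe sets. Hadha came close to the threshold (-0.32 ± 0.09, adjusted p = 0.0737), and Decr1 passed with the replicate number as a block (adjusted p = 0.0227). The call for Acads was lost without replicate 2 of EMD 100 µM at 72 h (adjusted p = 0.0524), and that for Acadm without any 1 of 7 arrays (adjusted p 0.0505 to 0.211). Whether the dose difference itself changed between the times was tested as an interaction and passed for 0 of 10 members, with 1 of 10, Acadm, at an unadjusted p under 0.05 and 2 probe sets (0.00644%) called over the array.

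Several of these enzymes were higher at the later time without EMD. In DMSO, 7 of 10 were higher at 72 h than at 24 h, where 11% of all probe sets were called higher. These were Eci1 (1.63 ± 0.15), Decr1 (1.40 ± 0.27), Acaa2 (1.28 ± 0.21), Acadm (0.82 ± 0.18), Acadl (0.58 ± 0.11), Etfdh (0.44 ± 0.12) and Hadha (0.35 ± 0.09). Acads (0.21), Hadhb (0.19) and Acadvl (0.18) did not pass. For 6 of 10 the 72 h arrays lay above the 24 h arrays without overlap, as for 15.1% of probe sets. The call for Etfdh was lost without replicate 3 of DMSO at 24 h or replicate 2 or 3 of DMSO at 72 h (adjusted p 0.0596 to 0.0845), and that for Hadha without replicate 2 of DMSO at 72 h (adjusted p = 0.0659). The second Acaa2 probe set did not share this change (-0.09), nor did the other 2 Hadha probe sets (-0.15 and -0.16), and the dim second Eci1 probe set was lower at 72 h (-0.58). With the probe sets of a gene averaged, the calls for Acaa2 (0.60, adjusted p = 0.0992) and Hadha (0.01, adjusted p = 0.931) were lost.

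In EMD 30 µM cultures 4 of 10 were higher at 72 h than at 24 h, Acadm (0.75 ± 0.18), Acads (0.71 ± 0.14), Hadha (0.52 ± 0.09) and Hadhb (0.33 ± 0.10), against 7.45% of all probe sets. The call for Hadhb was lost without any 1 of the 6 arrays compared (adjusted p 0.0687 to 0.107), and that for Hadha with its 3 probe sets averaged (0.14, adjusted p = 0.367). With the replicate number as a block Decr1 (adjusted p = 0.00943) and Acadvl (adjusted p = 0.0238) passed as well. In EMD 100 µM cultures only Hadha passed among the 10 (0.29 ± 0.09, adjusted p = 0.0491, 6.77% of all probe sets higher), and that call was lost without any 1 of 15 of the 18 arrays (adjusted p 0.0517 to 0.185). Probe sets called over time in either direction numbered 4221 in EMD 30 µM and 3843 in EMD 100 µM, and without single arrays ran from 2662 to 4721 and from 2285 to 4453 for these doses, lowest without replicate 2 of the EMD group at 72 h. The β-actin difference moved with time as well. At 72 h it lay between 0.82 and 0.89 in EMD 30 µM, 0.84 and 0.85 in EMD 100 µM and 0.64 and 0.73 in DMSO. At 24 h it lay between 1.22 and 1.39 in all 3 groups. The GAPDH difference had means of 0.27, 0.22 and 0.29 at 24 h and 0.17, 0.14 and 0.17 at 72 h (EMD 30 µM, EMD 100 µM, DMSO). The hexokinase difference moved both ways, from 1.63 to 1.50, from 1.51 to 1.67 and from 1.40 to 1.57 in the same order. The part of these differences in the time changes was not tested.

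Some markers of cell types were also called over time. In DMSO cultures 1 of 7 hepatocyte markers (Hnf4a, -0.62) and 2 of 6 macrophage markers (Cd68, -1.72, and Csf1r, -0.73) fell. So did 1 of 7 stellate cell or fibroblast markers (Pdgfrb, -0.49) and 1 of 5 endothelial markers (Lyve1, -0.43). Of 5 cholangiocyte markers 1 rose (Epcam, 1.81). Over all probe sets 10.7% were called lower and 11% higher at 72 h in DMSO. With EMD 3 hepatocyte markers fell at each dose, Hnf4a (-0.44 and -0.51 for EMD 30 µM and EMD 100 µM), Apoa1 (-0.49 and -0.46) and Serpina1 (-1.03 and -1.16). Cd68 and Acta2, of the stellate cell list (-0.54), fell in EMD 30 µM, and Epcam rose in EMD 100 µM (0.99). Over all probe sets 6.15% were called lower in EMD 30 µM, and 5.61% lower and 6.77% higher in EMD 100 µM. The part of these markers in the enzymes' time changes was not tested.

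**Figure D3:**
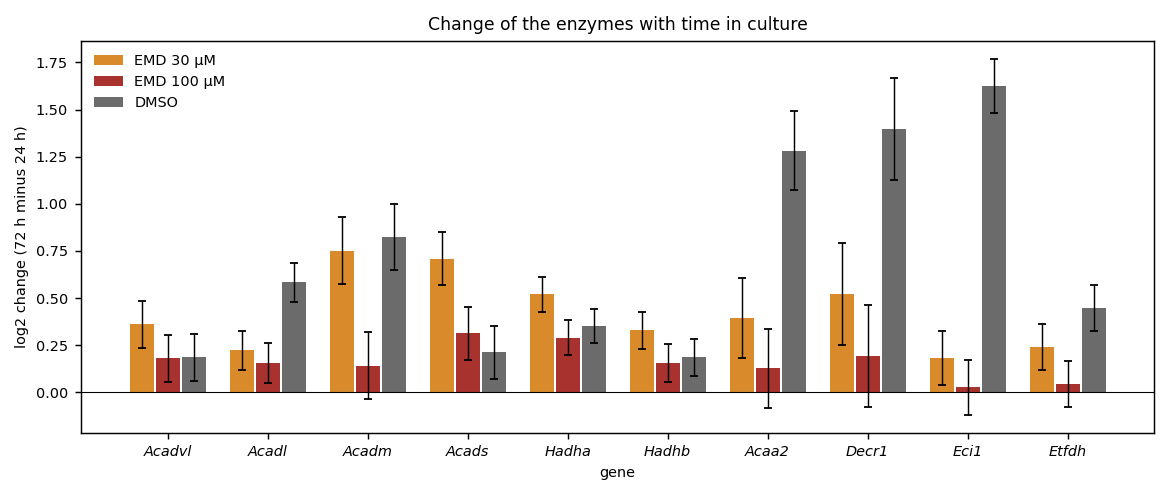
Log2 change, 72 h minus 24 h, of the 10 enzymes in EMD 30 µM, EMD 100 µM and DMSO cultures. Bars are limma estimates with their SE. The DMSO bars of Acaa2, Decr1 and Eci1 reach 1.28, 1.40 and 1.63, while the EMD bars of Eci1 stay at 0.18 and 0.03.

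The test of whether the EMD response itself differed between the times passed for Eci1 alone of the 10 in the fit without a replicate block. Its response was smaller at 72 h than at 24 h by 1.44 for EMD 30 µM (interaction -1.44 ± 0.21, adjusted p = 0.00321) and by 1.60 for EMD 100 µM (-1.60 ± 0.21, adjusted p = 0.00221). Interactions in this direction were called for 0.528% of all probe sets at EMD 30 µM and for 0.448% at EMD 100 µM. Both interactions use the same DMSO arrays, in which Eci1 rose with time. Acaa2 (-0.89 ± 0.30 and -1.16 ± 0.30) and Decr1 (-0.88 ± 0.38 and -1.21 ± 0.38) had estimates in the same direction that did not pass. The second Acaa2 probe set had interactions of -0.43 at EMD 30 µM and -0.42 at EMD 100 µM. The dim second Eci1 probe set had 0.23 and 0.32 for these doses, and none of these passed. With the replicate number as a block Decr1 passed at EMD 30 µM (adjusted p = 0.017) and EMD 100 µM (0.00306), and Acaa2 at EMD 100 µM (0.0258). An unadjusted p under 0.05 was reached by 5 of 10 at EMD 30 µM, which were Eci1, Acaa2, Decr1, Acadl (-0.36) and, in the opposite direction, Acads (0.50). At EMD 100 µM 6 of 10 reached it, which were Eci1, Acaa2, Decr1, Acadm (-0.68), Acadl (-0.43) and Etfdh (-0.40). The share of all probe sets at this unadjusted threshold was not counted, so these counts have no background beside them. For Hadha, Hadhb and Acadvl the estimates lay between -0.06 and 0.18, with 95% intervals inside -0.38 and 0.55.

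The other genes of mitochondrial β-oxidation, a list of 14 that were all measured, were called in part. At 24 h 9 of 14 rose under EMD 30 µM and 8 under EMD 100 µM, and none fell. At 72 h 10 rose under EMD 30 µM, and 8 rose and 1 fell under EMD 100 µM. Over all probe sets 3.35% and 3.06% were called higher at 24 h and 7.88% and 7.42% at 72 h (EMD 30 µM and EMD 100 µM). Under EMD 100 µM at 72 h 9.68% were called lower. The list medians were 0.80 and 0.56 at 24 h (EMD 30 µM and EMD 100 µM) and 1.07 and 0.55 at 72 h. Ech1, a dienoyl-CoA isomerase, rose by 3.28, 3.13, 2.36 and 1.99 (EMD 30 µM 24 h, EMD 100 µM 24 h, EMD 30 µM 72 h, EMD 100 µM 72 h). Acot2, a mitochondrial acyl-CoA thioesterase, rose by 2.31, 2.35, 2.25 and 2.35. Eci2, a second enoyl-CoA isomerase, rose by 2.23, 2.42, 2.29 and 2.15. Echs1, the short-chain enoyl-CoA hydratase, changed by 0.12, -0.16, 0.57 and -0.16 and passed only under EMD 30 µM at 72 h. Acadsb, the dehydrogenase for short branched acyl-CoA of isoleucine breakdown, changed by -0.24, -0.38, -0.72 and -1.36 and fell under EMD 100 µM at 72 h.

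All 5 genes of the carnitine route, which brings fatty acids to these enzymes, rose in all 4 comparisons, with medians of 3.03 and 3.01 at 24 h and 2.36 and 2.13 at 72 h (EMD 30 µM and EMD 100 µM). Cpt1b, the muscle-type outer membrane carnitine palmitoyltransferase, rose by 5.17, 4.88, 5.46 and 4.86, and Cpt1a, the liver type, by 3.41, 3.52, 2.36 and 2.13 (EMD 30 µM 24 h, EMD 100 µM 24 h, EMD 30 µM 72 h, EMD 100 µM 72 h). Of 7 measured genes of peroxisomal oxidation, 5 and 4 rose at 24 h and 5 and 3 at 72 h under EMD 30 µM and EMD 100 µM. Of all probe sets 3.35% and 3.06% were called higher at 24 h and 7.88% and 7.42% at 72 h for these doses. Ehhadh, the peroxisomal bifunctional enzyme, rose by 7.34, 7.15, 5.89 and 5.30.

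Downstream of the cycle, of 16 measured genes of the respiratory chain and TCA cycle, 0 passed at 24 h at either dose (limma, 2 at an unadjusted p under 0.05 at each dose), with medians of 0.03 for EMD 30 µM and -0.02 for EMD 100 µM. At 72 h 7 rose under EMD 30 µM and 2 under EMD 100 µM, with medians of 0.23 and 0.09. The largest of these was Cs, citrate synthase, at 0.65 ± 0.10 under EMD 100 µM. Genes of branched-chain acyl-CoA dehydrogenation were mixed, with 3 of 7 rising under EMD 30 µM at 24 h, 2 rising and 1 falling under EMD 100 µM at 24 h, 4 and 1 under EMD 30 µM at 72 h, and 3 and 2 under EMD 100 µM at 72 h. Ivd, the isovaleryl-CoA dehydrogenase, a mitochondrial relative of the chain-length enzymes that also feeds Etfdh, changed by -0.32, -0.65, -0.36 and -0.79 and fell in all but EMD 30 µM at 24 h. Of 4 genes that handle propionyl-CoA, 1 rose under EMD 30 µM at 24 h and 1 fell under EMD 100 µM at 72 h. Over all probe sets 3.35% and 3.06% were called higher and 2.01% and 2.95% lower at 24 h (EMD 30 µM and EMD 100 µM). At 72 h 7.88% and 7.42% were called higher and 9.22% and 9.68% lower for these doses.

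**Figure D4:**
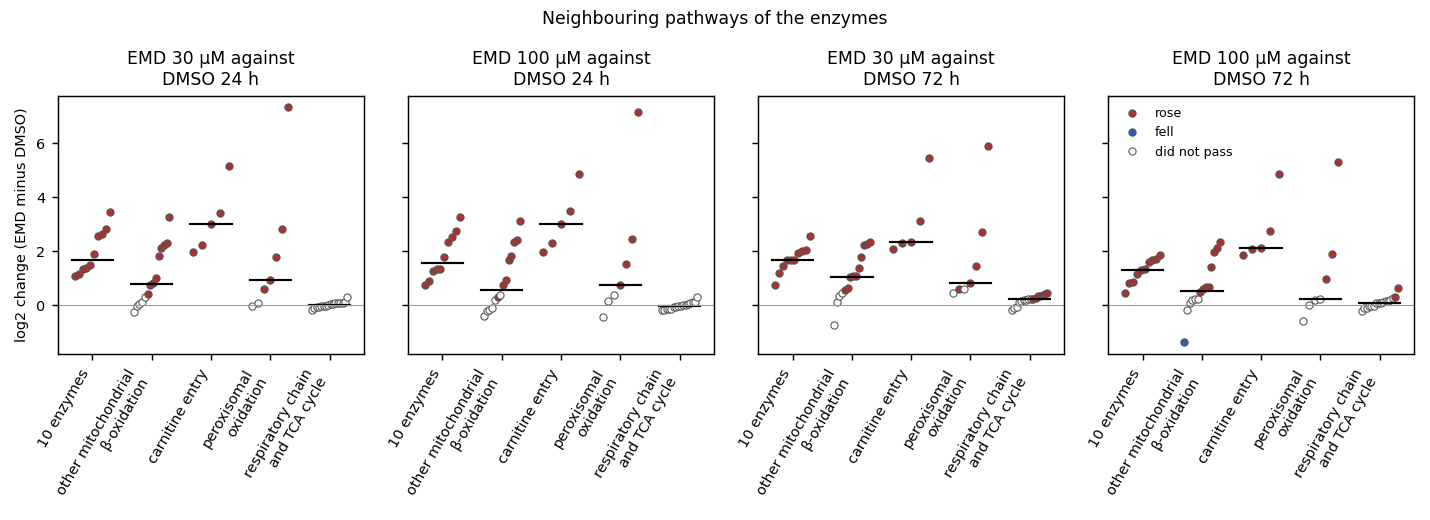
Log2 change, EMD minus DMSO, of the 10 enzymes and of the genes of 4 neighbouring lists in the 4 comparisons. Points are genes, filled red where they rose, blue where they fell and white where they did not pass, and lines are medians. The enzymes lie at medians of 1.33 to 1.70 and the respiratory chain and TCA cycle genes at -0.02 to 0.23.

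The 10 enzymes varied together over the 18 arrays. The correlation of each with the mean of the other 9 ran between 0.905 for Acads and 0.994 for Acadm, and between pairs it ran between 0.829 (Acads with Decr1) and 0.991 (Hadha with Hadhb). Of 14207 other genes, those with the highest correlation with the mean of the 10 were Nim1k (0.994), Ephx2 (0.993), Acat1 (0.992), Cyp4a1 (0.991), Hsd17b4 (0.991), Hadh (0.991), Decr2 (0.990) and Plbd1 (0.989). Among these, Acat1 encodes the mitochondrial acetoacetyl-CoA thiolase, Hadh the medium- and short-chain 3-hydroxyacyl-CoA dehydrogenase, Decr2 the peroxisomal counterpart of Decr1, Hsd17b4 a peroxisomal multifunctional enzyme and Cyp4a1 a fatty acid ω-hydroxylase. Ephx2 is the soluble epoxide hydrolase. These correlations describe points that share the split between 12 EMD and 6 DMSO arrays.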

How the data were processed

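RNA of 18 cultures was hybridised to Affymetrix rat genome arrays. Deposited were log2 values from RMA run by the authors, which corrects background, equalises the distributions of the arrays and condenses each probe set to 1 value. A shift common to most genes is thereby removed, low values are compressed, and no detection call is given. Its version is not stated in the labels or methods. The table held 31099 probe sets, of which 57 controls were left out, and 0 value columns lacked a sample. The number of arrays limits the precision (median SE 0.116), and depth does not apply.

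GEO's platform annotation gave 1 gene symbol for 20826 probe sets, several for 436 and none for 9780. All 10 members matched the RefSeq gene table and 7 its promoter table.

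Groups were read from the labels. limma 3.58.1 in R 4.3.3 (lmFit, eBayes, two-sided, Benjamini-Hochberg over 31042 probe sets, threshold 0.05) was run with 6 groups in 1 fit, and once with EMD against DMSO and time as a factor. "Rose" and "fell" mean past this threshold. The share of all probe sets with an unadjusted p under 0.05 was not counted for any comparison. Pairs of members were compared by an exact permutation test. Figures were drawn with matplotlib 3.10.9. The fits, the pair test and the motif search were tested on simulated data.

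Named are all members, up to 4 called members of each of 12 gene lists with the largest change, Etfa, Etfb, Echs1, Acadsb, Ivd and Alb, which were chosen after their values were seen, and the 8 genes most correlated with the members' mean. The members and lists were chosen with earlier results of these data known. Some list genes are not reported here, and counts are over those measured. Of the 6 macrophage markers 1 fell under EMD 100 µM at 72 h (9.68% of all probe sets lower). Of the 7 stellate cell or fibroblast markers 2 fell under EMD 30 µM at 72 h (9.22% lower). Of the 5 cholangiocyte markers 1 rose under EMD 30 µM at 24 h (3.35% higher). Of the 5 endothelial markers none was called in any EMD comparison with DMSO (limma, 1 at an unadjusted p under 0.05 at each dose at 24 h and 0 at 72 h). Alternatives were cyclic loess, equal array medians, a filter on dim probe sets, array weights, trended robust moderation, only the arrays compared, the replicate number as a block, averaging the probe sets of each gene, and leaving out each array. The pair test was repeated only with cyclic loess, equal array medians, averaged probe sets and each array left out.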

Additional observations from a re-analysis of the deposited data

Results flagged for a closer look

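The response of Eci1 to EMD differed between the times by the test of the interaction itself. It was smaller at 72 h than at 24 h, with interactions of -1.44 for EMD 30 µM (adjusted p = 0.00321) and -1.60 for EMD 100 µM (adjusted p = 0.00221). The EMD arrays of Eci1 lay between 13.20 and 13.67 at 72 h and between 13.26 and 13.46 at 24 h, and its DMSO arrays between 11.36 and 11.94 at 72 h and between 9.80 and 10.39 at 24 h. Its EMD group means lay above those of 99.7% to 99.9% of probe sets. The dim second Eci1 probe set had interactions of 0.23 and 0.32 (EMD 30 µM and EMD 100 µM), which did not pass. The cause was not tested.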

How the results depend on the processing

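All 10 members rose in all 4 comparisons of EMD with DMSO under every alternative and without any 1 array. So they did in the comparison over both times, which was not run with only the arrays compared. Leaving out single arrays gave 5 to 8 members higher at 72 h in DMSO, 3 to 5 in EMD 30 µM and 0 to 1 in EMD 100 µM, 0 to 3 lower at EMD 100 µM than at EMD 30 µM at 72 h, and 1 with an interaction at each dose. In EMD 100 µM, 0 members were higher at 72 h with cyclic loess, with the mean of all probe sets and with only the arrays compared. At 72 h, 5 members were lower at EMD 100 µM than at EMD 30 µM with array weights and 0 with only the arrays compared. Array weights gave 4 members with a lower interaction at EMD 100 µM.

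With the replicate block the members with a lower interaction numbered 2 at EMD 30 µM and 3 at EMD 100 µM, adding Decr1 and, at EMD 100 µM, Acaa2. The block changed no call of EMD against DMSO. In the methods every animal's cells had all treatments, but no label says that a replicate number marks an animal. Of 18 same-numbered pairs of arrays, 16 had deviations from the group means that correlated over 0.1 (0.0058 to 0.63), and 17 of 18 arrays correlated best with their own number.

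The change of Hadha less that of Hadhb reversed to -0.13 with the mean of all probe sets, which includes a dim Hadha probe set. The change of Acadl less that of Acads passed with cyclic loess (-0.32, adjusted p = 0.0434) and ran from -0.35 to -0.24 without single arrays. These estimates changed sign; of them only Hadha in EMD 100 µM over time had passed. With the mean of all probe sets, Acaa2 came to -0.190 (EMD 100 µM) and -0.0622 (EMD 30 µM) over time and to 0.134 and 0.0061 between doses at 24 h and 72 h, Eci1 to -0.116 and -0.0851 over time at EMD 100 µM and EMD 30 µM, and Hadha to -0.0010 over time at EMD 100 µM and 0.0274 between doses at 24 h. With cyclic loess, over time at EMD 100 µM, Eci1 came to -0.0787 and Etfdh to -0.0300, and Hadhb to -0.0065 between doses at 24 h. With array weights the Acads interaction at EMD 100 µM came to -0.0516. Without single arrays, estimates that crossed 0 ran from -0.0233 to 0.249 (Acadm), -0.0724 to 0.448 (Decr1) and -0.0340 to 0.0760 (Eci1) over time at EMD 100 µM, from -0.421 to 0.0493 (Decr1) and -0.0219 to 0.0292 (Hadhb) between doses at 24 h, and, for interactions, from -0.189 to 0.153 (Acadm, EMD 30 µM), and at EMD 100 µM from -0.0410 to 0.238 (Acads), -0.131 to 0.0971 (Acadvl), -0.132 to 0.0099 (Hadha) and -0.141 to 0.0442 (Hadhb). The cause was not tested.

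Calls over all probe sets moved too. Between the doses there were 963 at 72 h, against 3336 with array weights, 141 with only the arrays compared and 1625 with the block, and 0 at 24 h, against 9 with weights and 3 with the block. Interactions numbered 292 at EMD 30 µM (641 with weights, 924 with the block) and 215 at EMD 100 µM (1090 with weights, 76 with only the arrays compared, 534 with the block), and those of dose by time 2 (45 with weights, 1 with the block, 0 with only the arrays compared or without dim probe sets). Array weights gave 8192 calls for EMD 100 µM against DMSO at 72 h and 6849 for EMD 100 µM over time, and only the arrays compared gave 3305 and 2315, where the reported fit gave 5308 and 3843. For DMSO over time they numbered 3997 with only the arrays compared, where the reported fit gave 6738. Without single arrays, calls between the doses ran from 141 to 2541 at 72 h (lowest without replicate 2 and highest without replicate 1 of EMD 100 µM at 72 h) and from 0 to 2 at 24 h. Interactions ran from 123 to 475 at EMD 30 µM, from 57 to 800 at EMD 100 µM and from 0 to 179 for dose by time, lowest at each dose without replicate 2 of DMSO at 72 h. The 800 and 179 were without replicate 1 of EMD 100 µM at 72 h. Each group had 3 arrays, and the values carry no detection call.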
